A study of Mus musculus with 2 samples.

Results

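The G2/M and mitosis genes described here are 48 of the 32285 genes in the count matrices, taken by gene symbol. They are the genes whose RNA accumulates as a cell that has copied its DNA prepares to divide, and they were followed across the lineages of mouse bone marrow progenitors, cell by cell, and between Phf6 knockout (KO) and Phf6 wild-type (WT) cells. All 48 were found in both matrices and in the GENCODE M21 annotation of GRCm38, on 17 chromosomes, and all are protein coding.

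Both groups are mouse marrow cells transduced with a vector for the RUNX1-S291fs mutant and GFP, sorted for GFP and transplanted into recipient mice. The KO group carried this vector in Phf6 knockout marrow and the WT group carried the same vector in wild-type marrow, so the mutant RUNX1 is common to both and no cells without it were compared. At 8 weeks, cells positive for GFP and negative for lineage markers (Lin-) were collected from recipient marrow by sorting and profiled with 3′ single-cell RNA sequencing, in 1 KO library and 1 WT library. The labels give neither the number of donor or recipient mice behind a library nor the deleted part of Phf6. With 1 library per genotype no test between genotypes is possible, and every interval below covers counting error only.

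Entry into mitosis is driven by the kinase CDK1 bound to cyclins A and B, and exit from it by the anaphase-promoting complex, a ubiquitin ligase that marks cyclin B and other proteins for destruction. Between these steps chromosomes condense, kinetochores capture spindle microtubules and the cell is cleaved. In marrow, the RNAs of these genes are abundant in dividing progenitors and low in mature cells. Their promoters are known for CCAAT boxes, bound by the factor NF-Y, and for a short element called CHR, TTTGAA or TTTAAA, through which the DREAM and MYB-MuvB complexes act.

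The following promoters are printed because their genes carry the comparisons that follow: cyclin B2, the mitotic-exit activator Cdc20, the kinase Cdk1, the topoisomerase Top2a, the chromatin protein Hmgb2, the spindle motor Kif11, and the spindle protein Nusap1, whose window holds neither motif. Each is the 130 bases upstream of the RefSeq start, GRCm38.p6, read 5′ to 3′ on the gene's strand. Capitals mark the CCAAT box and both CHR forms on either strand, so a match on the opposite strand is printed as its reverse complement.
Ccnb2 (chr9:70421555-70421684, minus strand): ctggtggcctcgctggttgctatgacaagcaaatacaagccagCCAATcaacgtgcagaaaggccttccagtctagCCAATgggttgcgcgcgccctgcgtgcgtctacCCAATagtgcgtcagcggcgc
Cdc20 (chr4:118437344-118437473, minus strand): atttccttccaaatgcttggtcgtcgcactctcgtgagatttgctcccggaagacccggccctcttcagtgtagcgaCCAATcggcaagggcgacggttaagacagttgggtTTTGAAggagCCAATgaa
Cdk1 (chr10:69352913-69353042, minus strand): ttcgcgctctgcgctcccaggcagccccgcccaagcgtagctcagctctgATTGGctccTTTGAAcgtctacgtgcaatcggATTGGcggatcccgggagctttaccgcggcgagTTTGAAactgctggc
Top2a (chr11:99024190-99024319, minus strand): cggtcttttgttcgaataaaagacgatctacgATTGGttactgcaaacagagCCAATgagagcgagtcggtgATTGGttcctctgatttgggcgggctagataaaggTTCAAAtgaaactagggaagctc
Hmgb2 (chr8:57511713-57511842, plus strand): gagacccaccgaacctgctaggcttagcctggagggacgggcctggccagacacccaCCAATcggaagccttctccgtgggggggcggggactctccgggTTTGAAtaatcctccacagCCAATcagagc
Kif11 (chr19:37376252-37376381, plus strand): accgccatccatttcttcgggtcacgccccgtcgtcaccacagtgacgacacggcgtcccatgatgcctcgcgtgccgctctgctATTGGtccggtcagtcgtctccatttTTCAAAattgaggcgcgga
Nusap1 (chr2:119618168-119618297, plus strand): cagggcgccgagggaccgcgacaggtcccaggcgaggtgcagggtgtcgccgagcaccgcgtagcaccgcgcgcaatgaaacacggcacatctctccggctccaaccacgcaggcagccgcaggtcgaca

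RefSeq windows from 250 bases before to 50 bases after the start were available for 41 of the 48 members. CCAAT was present on either strand in 33 of these 41 members (80.5%) and in 41.6% of the windows of 20226 other genes. TTTGAA was present in 31 members (75.6%), against 18.5% of other genes, and TTTAAA in 26.8%, against 13.7%. CCAAT together with either CHR form was present in 30 members (73.2%), among them the printed Ccnb2, Cdc20, Cdk1, Top2a, Hmgb2 and Kif11, against 11.4% of other genes. The CHR matches of Ccnb2 lie outside the 130 bases printed for it. The motifs were searched separately and can share end bases. A match is a description of letters, and a window without one, like that of Nusap1, shows nothing about binding.

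After filtering, 4709 KO cells and 4478 WT cells were kept, with 110416265 and 118834279 unique molecular identifiers (UMIs, each a counted RNA molecule) and medians of 21428 and 24800 UMIs per cell. The KO and WT libraries shared 10 cell barcodes, 7 of them among kept cells. Levels are UMIs per 1000000 UMIs (CPM), not divided by gene length because each molecule is counted at its 3′ end. Phf6, at 20.7 CPM in KO cells and 41.7 CPM in WT cells, had a log2 ratio of -1.01 (95% interval -1.09 to -0.94). The deleted part is not given, so whether these 3′ reads lie outside it cannot be told. The source of the Phf6 reads in KO cells was not tested. Against the Lin- label, the cells included a B cell-like cluster of 50 KO and 67 WT cells and a plasma cell-like cluster of 0 KO and 53 WT cells.

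The cyclins, CDK1 and its direct regulators were lower in the KO library as a group, without any member reaching a 1.5-fold difference. The 8 genes summed to 608 CPM in KO cells and 718 CPM in WT cells. Ccnb1, the cyclin of mitotic entry, had 32.8 CPM in KO cells and 43.6 CPM in WT cells, a log2 ratio of -0.41 (-0.47 to -0.35) that was the lowest of all members at 10 CPM or more. Ccnb2 had 70.6 CPM in KO cells and 83.5 CPM in WT cells. Cks2 and Cks1b, small proteins that bind CDK1, had the most UMIs of the group: Cks2 had 229 CPM in KO cells and 276 CPM in WT cells. Cks1b had 144 CPM in KO cells and 158 CPM in WT cells. Cdk1 itself had 82.6 CPM in KO cells and 96.6 CPM in WT cells. All 6 genes of this group at 10 CPM or more had log2 ratios below 0 with intervals below 0. Gtse1, a microtubule-binding protein of G2, and Cdc25c, a phosphatase that activates CDK1, lay under 10 CPM in both libraries. The group's median log2 ratio was -0.26 over all cells, -0.095 without the erythroid-like clusters described below and -0.11 at the WT mix of clusters.

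Mitotic kinases and the chromosomal passenger complex, which corrects faulty attachments of chromosomes to the spindle, had a similar median log2 ratio of -0.23 over 7 genes. Birc5, which encodes the passenger protein survivin, had 110 CPM in KO cells and 139 CPM in WT cells (log2 -0.33, -0.37 to -0.30). Cdca8, the passenger protein borealin, had 88.1 CPM in KO cells and 106 CPM in WT cells. Ttk, a kinase of the spindle checkpoint, went the other way, with 19.8 CPM in KO cells and 19.0 CPM in WT cells, and its interval of -0.02 to 0.15 spans 0. The 3 genes of ubiquitin-dependent mitotic exit had the lowest median of any role group, -0.31. Cdc20, which activates the anaphase-promoting complex, had 40.6 CPM in KO cells and 52.4 CPM in WT cells (log2 -0.37, -0.42 to -0.31). Ube2c, the ubiquitin-conjugating enzyme of that complex, had 85.9 CPM in KO cells and 107 CPM in WT cells. Cdca3, a trigger of mitotic entry, had 57.6 CPM in KO cells and 66.3 CPM in WT cells. Over all cells, then, all of the mitotic-exit group and 6 of the 7 kinase and passenger genes lay below 0. Without the erythroid-like clusters the mitotic-exit median was -0.11 and the kinase and passenger median turned to 0.019, and at the WT mix of clusters they were -0.12 and -0.11.

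Centromere and kinetochore genes were split, with a median log2 ratio of -0.14 over all cells that turned to 0.018 without the erythroid-like clusters. Cenpa, the histone variant that marks centromeres, had 92.4 CPM in KO cells and 109 CPM in WT cells. Cenpf, a kinetochore protein, had 62.9 CPM in KO cells and 73.7 CPM in WT cells. Hjurp, the chaperone that deposits CENP-A, lay on the other side with 66.4 CPM in KO cells and 60.4 CPM in WT cells, and its log2 ratio of 0.14 (0.09 to 0.19) was the highest of all members at 10 CPM or more. Ndc80, the microtubule-binding subunit of the outer kinetochore, had 28.8 CPM in KO cells and 27.2 CPM in WT cells (log2 0.08, 0.01 to 0.16).

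Spindle, cytokinesis and chromosome structure genes lay closer to equality, with median log2 ratios of -0.09, -0.08 and -0.04. Tubb4b and Hmmr were the lowest of the spindle genes. Tubb4b, a beta-tubulin, had 253 CPM in KO cells and 319 CPM in WT cells (log2 -0.34, -0.36 to -0.31). Hmmr, a spindle assembly protein, had 40.9 CPM in KO cells and 50.7 CPM in WT cells (log2 -0.31, -0.37 to -0.25). Without the erythroid-like clusters the spindle, cytokinesis and chromosome structure medians turned to 0.027, 0.0040 and 0.053. Tpx2, which activates Aurora A on the spindle, had 62.5 CPM in KO cells and 66.4 CPM in WT cells. Kif23 and Ect2, of the central spindle and the cleavage furrow, differed as little. Kif23 had 39.0 CPM in KO cells and 40.3 CPM in WT cells, and Ect2 had 30.9 CPM in KO cells and 32.7 CPM in WT cells. Hmgb2, a DNA-bending chromatin protein, made up much of the summed signal, with 1490 CPM in KO cells and 1569 CPM in WT cells. Top2a, which untangles sister DNA, had 274 CPM in KO cells and 273 CPM in WT cells, a log2 ratio of 0.0034 with an interval of -0.02 to 0.03. Tmpo, a nuclear envelope protein, had 178 CPM in KO cells and 170 CPM in WT cells (log2 0.06, 0.03 to 0.09).

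**Figure D1:**
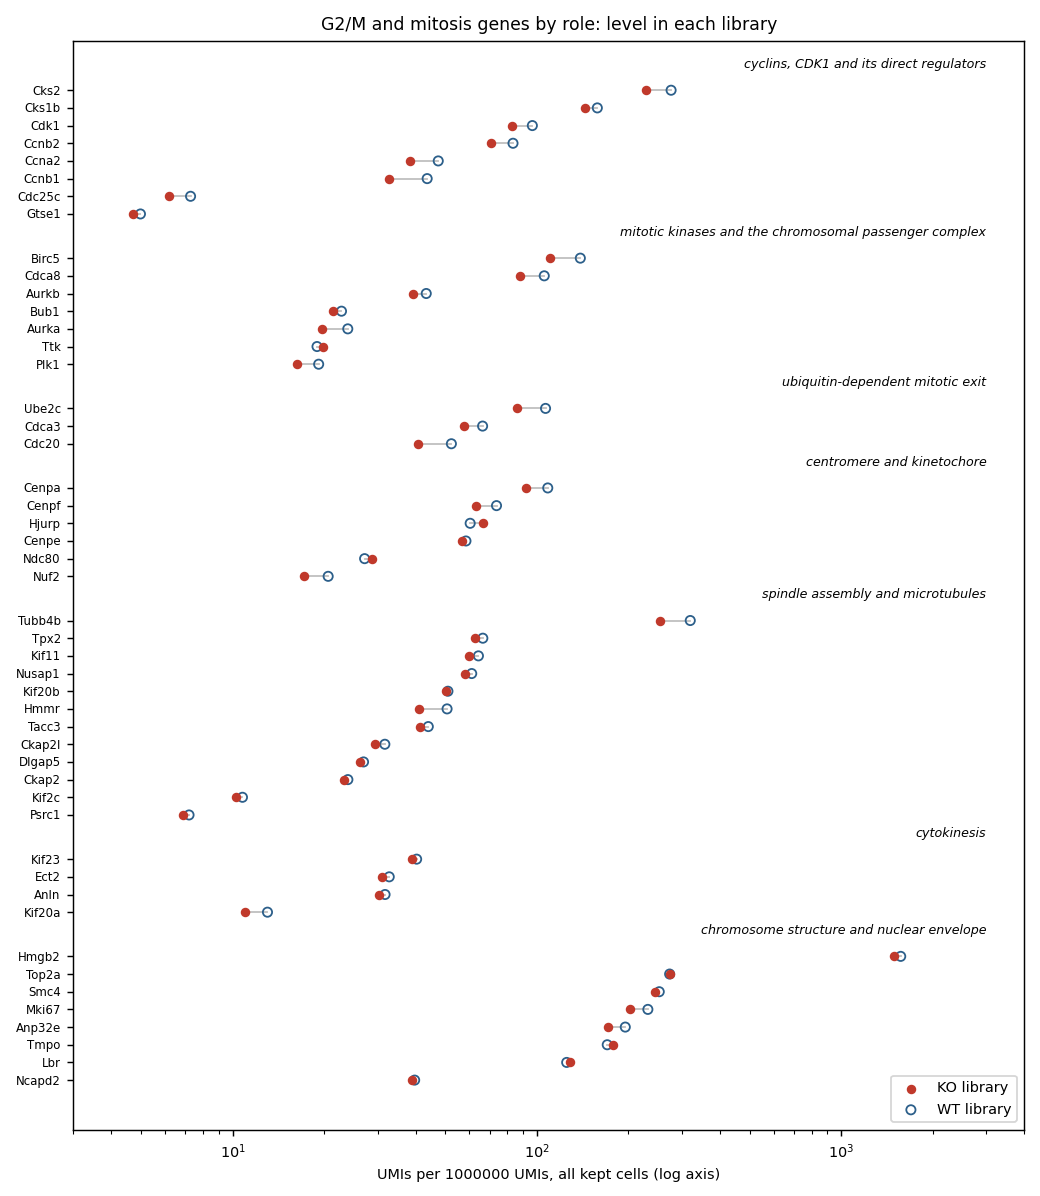
Level of each of the 48 members in UMIs per 1000000 UMIs (log axis) over all kept cells, grouped by role, with the KO library as filled red points and the WT library as open blue points. The KO point lies left of the WT point for most genes, with the widest gaps at Ccnb1, Cdc20, Tubb4b and Birc5, and right of it for Hjurp, Ndc80, Ttk and Tmpo.

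Over all members the summed level was 4929 CPM (4916 to 4943) in KO cells and 5396 CPM (5383 to 5410) in WT cells, a log2 ratio of -0.13 (-0.14 to -0.13). Of the 45 members with a mean of at least 10 CPM, 0 were at least 1.5-fold higher, where 2.06% of all 8580 genes at that level were, and 0 were at least 1.5-fold lower, where 1.24% were. Ratios lay below 0 for 39 members, 32 of them with intervals below 0, and above 0 for 6, of which 4 had intervals above 0. Their median was -0.11, beside a median of 0.06 over all 8580 genes. The share of all genes with intervals below or above 0 is not given, so the interval counts are descriptions.

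A list of 63 other G2/M and mitosis genes gave 57 at 10 CPM or more, with a median log2 ratio of -0.09 and 0 past 1.5-fold in either direction. Depdc1b, a regulator of cell adhesion around mitosis, had the largest ratio of that list, with 40.1 CPM in KO cells and 31.3 CPM in WT cells (log2 0.36, 0.30 to 0.42). Mybl2, the MYB subunit of the MYB-MuvB complex, was at 25.8 CPM in KO cells and 31.3 CPM in WT cells (log2 -0.28). Pbk, a mitotic kinase, was at -0.28 and Cenpw, a centromere protein, at -0.21. The 46 genes of G1/S and DNA replication, which act before mitosis, had a median log2 ratio of -0.14. Of these, 0 were past 1.5-fold higher and 1 was past 1.5-fold lower: Ccne1, the cyclin of S phase entry, had 15.3 CPM in KO cells and 24.4 CPM in WT cells (log2 -0.67, -0.76 to -0.58). The DNA precursor enzyme Rrm2 (-0.37), the histone chaperone Nasp (-0.34) and the DNA repair enzyme Ung (-0.33) followed. The median of the replication genes thus lay as low as that of the 48 members.

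Erythroid-like cells carried the highest member RNA of any named lineage, and the KO library held fewer of them. They were 103 of the KO cells (2.19%) and 266 of the WT cells (5.94%). Their summed level was 8548 CPM in KO cells and 9347 CPM in WT cells, so they held 7.25% of member UMIs in the KO library and 22.0% in the WT library. For Ccnb1, Plk1, Ccna2 and Hmmr the erythroid-like share of WT UMIs was 37.7%, 37.2%, 36.7% and 35.9%, while for Hjurp it was 14.0%.

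Without the erythroid-like clusters the summed levels were 4772 CPM in KO cells and 4822 CPM in WT cells, a log2 ratio of -0.015 (-0.021 to -0.0094). The median over the 44 members then at 10 CPM or more was 0.0040, with 22 above 0 and 22 below. Over all 8563 genes at that level the median was 0.05. Again 0 were past 1.5-fold higher (1.33% of all genes) and 0 past 1.5-fold lower (0.666%). Ccnb1 then had 29.7 CPM in KO cells and 31.1 CPM in WT cells, and its interval of -0.14 to 0.0035 spanned 0. Plk1, the polo kinase of mitotic entry and exit, turned from -0.23 over all cells to 0.14 (0.03 to 0.24) without erythroid-like cells. Cks2 at -0.16 and Cdc20 at -0.14 stayed below 0 with intervals below 0. Setting KO levels to the WT mix of clusters instead gave a summed log2 ratio of -0.038. Clusters were weighted there by their WT UMIs, and the plasma cell-like cluster, which has no KO cells, was left out. The choice of removing the erythroid-like lineage was made after its share had been seen.

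**Figure D2:**
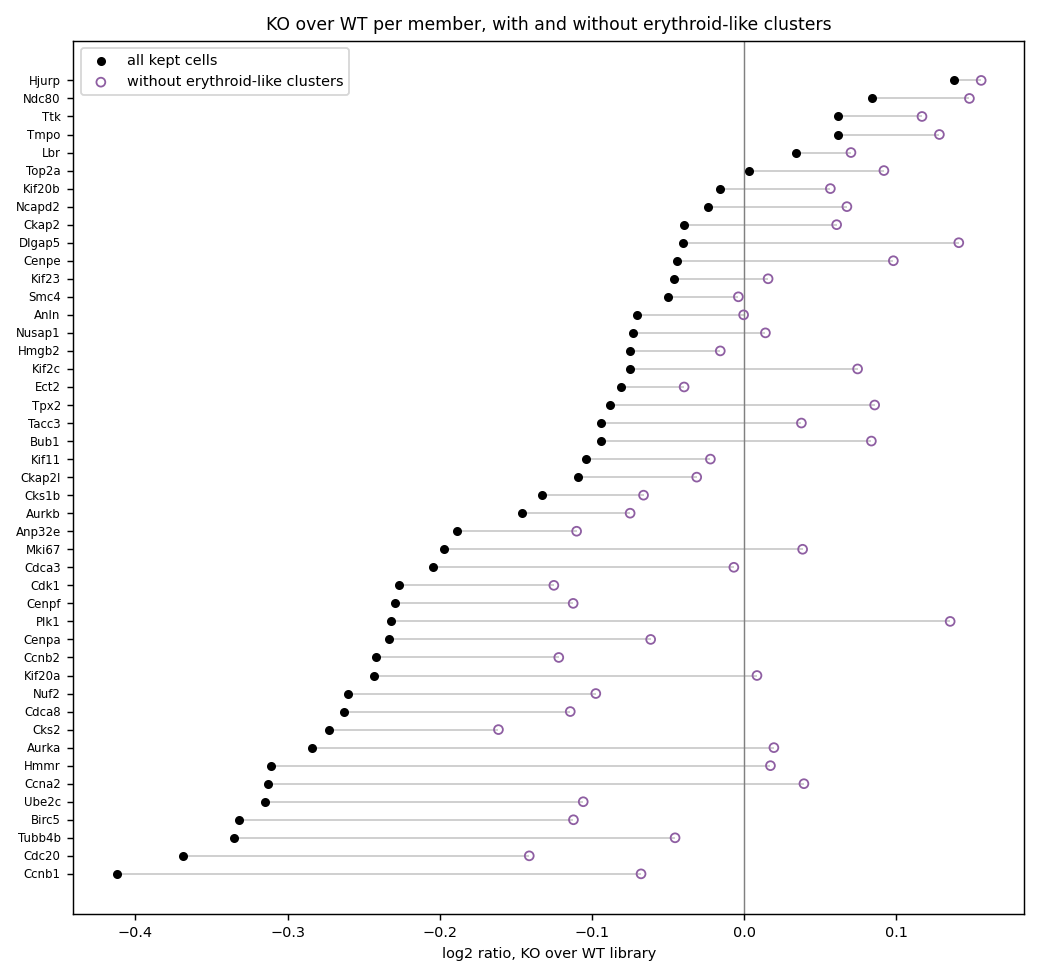
Log2 ratio of KO over WT library for each member at 10 CPM or more, over all kept cells (black points) and without the erythroid-like clusters (open purple points), ordered by the ratio over all cells. All points move right when the erythroid-like clusters are left out, and the median goes to 0.0040 from -0.11.

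The level of the members varied far more between clusters than between genotypes. Clusters were made without the members and other cycle genes. In the 19 clusters with at least 50 cells of each library, the summed level ran between 930 and 7523 CPM in KO cells and between 1056 and 7921 CPM in WT cells. The highest was the erythroid-like cluster led by the carbonic anhydrase Car1, at 7523 CPM in KO cells and 7921 CPM in WT cells. A smaller erythroid-like cluster of 21 KO and 76 WT cells lay higher, at 11558 CPM in KO cells and 12900 CPM in WT cells. The monocyte-like cluster led by Fn1 came next, at 7108 CPM in KO cells and 7359 CPM in WT cells. An unnamed cluster that mixed the cytotoxic lymphocyte genes Gzma, Ccl5 and Klrd1 with the dendritic cell genes Siglech and H2-Aa had 6099 CPM in 81 KO cells and 6175 CPM in 106 WT cells. The lowest in both libraries included a cluster led by the complement gene C1qb, at 950 CPM in KO cells and 1056 CPM in WT cells. A cluster led by Slc6a4 and the platelet tubulin Tubb1, of low depth, had 1362 CPM in KO cells and 1551 CPM in WT cells. Plasma cell-like cells, present among kept cells of the WT library alone, had 330 CPM. With doublets kept, the plasma cell-like cluster held 7 KO and 62 WT cells.

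Among these 19 clusters, members did not all peak in the same one. The Car1-led erythroid-like cluster was the highest of the 19 for 23 members in KO cells and 27 in WT cells, and 33 of 48 members peaked in the same cluster in both libraries. Tubb4b reached 668 CPM there in KO cells and 809 CPM in WT cells, and Cks2 reached 468 CPM in KO cells and 481 CPM in WT cells. Hmgb2, Lbr and Tmpo peaked instead in the Fn1-led monocyte-like cluster, where Hmgb2 had 2865 CPM in KO cells and 2921 CPM in WT cells. Lbr, the lamin B receptor of the nuclear envelope, had 218 CPM there in KO cells and 221 CPM in WT cells. Cenpf and Kif11 peaked in an unnamed cluster led by Fgf3 and Apoe. Ckap2l, a spindle protein, peaked in the megakaryocyte-like cluster, at 60.6 CPM in KO cells and 65.1 CPM in WT cells. The smaller erythroid-like cluster, with 21 KO cells, was not among the 19, and members may be higher in it. Top2a had 431 CPM in KO cells of the whole erythroid-like class, above its highest of the 19, 415 CPM in the Gzma-led cluster.

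**Figure D3:**
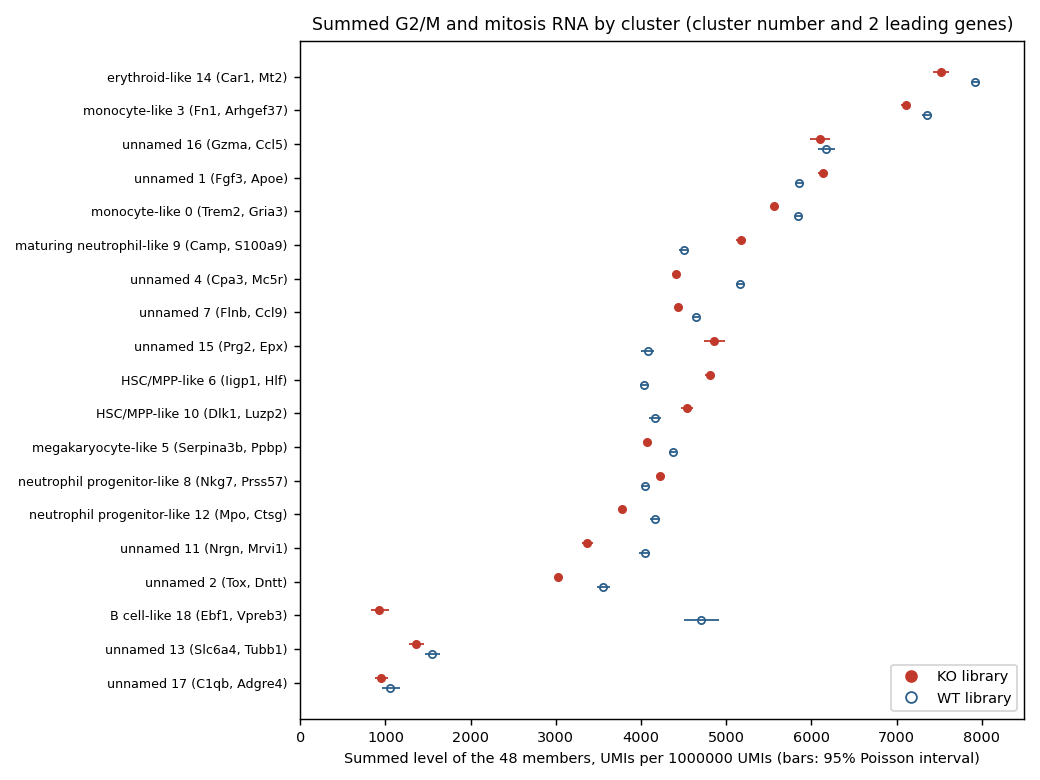
Summed level of the 48 members in UMIs per 1000000 UMIs in each of 19 clusters, with KO library points filled red above WT library points open blue and bars for the 95% Poisson interval of counting. In KO cells levels run from 930 in the B cell-like cluster to 7523 in the Car1-led erythroid-like cluster, and KO and WT points lie close together in most clusters except the B cell-like one.

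Of these 19 clusters, 13 had a lower summed level in KO cells, 11 of them with an interval below 0, and 6 had a higher level, all 6 with an interval above 0. The largest gap lay in the B cell-like cluster. Next came unnamed clusters led by Nrgn (log2 -0.26), by the lymphoid genes Tox and Dntt (-0.23) and by Cpa3 (-0.23). On the other side were an unnamed cluster that mixed the eosinophil genes Prg2 and Epx with the mast cell and basophil genes Tpsb2, Cma1, Prss34 and Mcpt8 (0.25) and the HSC/MPP-like (haematopoietic stem cell or multipotent progenitor) cluster led by Iigp1 and Hlf (0.25). The Tox-led cluster held 565 KO cells and 162 WT cells, and its members summed to 3028 CPM in KO cells and 3559 CPM in WT cells.

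Maturing neutrophil-like cells, which express granule genes such as Camp, had more member RNA in the KO library. Their 214 KO cells had 5172 CPM and their 233 WT cells had 4500 CPM, a log2 ratio of 0.20 (0.18 to 0.22) that stayed above 0 in all 9 other settings tried (0.13 to 0.51). Their median depth was 30189.5 UMIs in KO cells and 27126 UMIs in WT cells, and its part in the ratio was not tested. Of 43 members at 10 CPM or more, 8 were at least 1.5-fold higher, where 2.07% of all genes were, and 0 were lower (1.76%). Nusap1, which bundles spindle microtubules, had 31.6 CPM in KO cells and 18.3 CPM in WT cells (log2 0.79, 0.46 to 1.13). Anln, a scaffold of the cleavage furrow, had 31.6 CPM in KO cells and 18.6 CPM in WT cells (log2 0.77, 0.44 to 1.11). Ndc80 had 26.4 CPM in KO cells and 16.2 CPM in WT cells (log2 0.70, 0.34 to 1.06). Plk1, Kif11, Hmmr, Ttk and Top2a were the others. The cyclin Ccnb2 was the lowest member at 20 CPM or more, with 75.1 CPM in KO cells and 92.1 CPM in WT cells (log2 -0.29, -0.47 to -0.12), followed by Cdc20 (-0.15) and Cks2 (-0.14). The G1/S list summed higher too, at a log2 ratio of 0.21, and the share of high-sum cells, defined below, was 30.8% in KO cells and 24.6% in WT cells, with an interval of the difference of -2.08 to 14.5 percentage points.

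HSC/MPP-like cells summed to 4721 CPM in 561 KO cells and 4085 CPM in 480 WT cells, a log2 ratio of 0.21 (0.19 to 0.23). Of 43 members at 10 CPM or more, 4 were at least 1.5-fold higher, where 3.44% of all genes were, and 0 were lower (1.39%). Nusap1 had 96.3 CPM in KO cells and 60.0 CPM in WT cells (log2 0.68, 0.53 to 0.84). Ckap2l had 36.4 CPM in KO cells and 23.1 CPM in WT cells (log2 0.66, 0.41 to 0.91). Aurka, the Aurora A kinase, and Plk1 were the others. The direction rested on how the class was drawn: the log2 ratio was -0.18 with coarser clusters and -0.0098 when cycle genes were kept among the clustering genes.

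In erythroid-like cells the log2 ratio was -0.13 (-0.15 to -0.11), and it stayed below 0 in all 9 other settings (-0.28 to -0.05). The class pools the Car1-led cluster (82 KO and 190 WT cells) with the smaller, higher one (21 KO and 76 WT cells). Their mix differs between the libraries, and its part in the ratio was not tested. In the Car1-led cluster alone the members summed to 7523 CPM in KO cells and 7921 CPM in WT cells. Of 48 members at 10 CPM or more, 1 was at least 1.5-fold lower, where 0.933% of all genes were: Aurka had 38.1 CPM in KO cells and 60.6 CPM in WT cells. The count of members past 1.5-fold higher was 0, where 7.43% of all genes were. Anln again lay on the high side, with 67.4 CPM in KO cells and 53.2 CPM in WT cells (log2 0.34, 0.15 to 0.53). Median depth in the Car1-led cluster was 36128 UMIs in KO cells and 54827 UMIs in WT cells, and its part in the ratio was not tested.

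Monocyte-like cells, the largest class, summed to 6140 CPM in 877 KO cells and 6484 CPM in 676 WT cells (log2 -0.08, -0.09 to -0.07), below 0 in all 9 other settings (-0.11 to -0.06). Kif23 had 48.1 CPM in KO cells and 61.6 CPM in WT cells (log2 -0.35, -0.47 to -0.24), and Cdc20 (-0.35) and Cenpa (-0.31) were next. Ttk (0.12), Top2a (0.10) and Ncapd2, a condensin subunit (0.07), were the highest at 20 CPM or more. Of 45 monocyte-like members at 10 CPM or more, 0 were past 1.5-fold higher (1.15% of all genes) and 0 lower (0.694%). Megakaryocyte-like cells had a summed log2 ratio of -0.11 (-0.13 to -0.08), which turned to 0.021 (0.00050 to 0.041) when cycle genes were kept among the clustering genes. Cdk1 was lowest there, with 80.1 CPM in KO cells and 100 CPM in WT cells (log2 -0.32, -0.47 to -0.18), beside Birc5 and Cdca8, both at -0.24. Ndc80 (0.29), Ccnb1 (0.12) and Dlgap5, a spindle protein (0.09), were highest. Neutrophil progenitor-like cells had a summed log2 ratio of -0.034 (-0.051 to -0.018), whose sign turned in 4 of 7 other settings. Nusap1 was lowest in them, with 20.7 CPM in KO cells and 30.5 CPM in WT cells (log2 -0.56, -0.78 to -0.34), then Cenpf (-0.38) and Kif23 (-0.35). Mki67, the proliferation antigen that coats mitotic chromosomes (0.18), Kif20b, a motor of cytokinesis (0.14), and Tmpo (0.12) were highest. Of 43 members in megakaryocyte-like cells, 0 were past 1.5-fold higher (1.55% of all genes) and 0 lower (1.08%), and of 42 in neutrophil progenitor-like cells likewise 0 higher (1.32%) and 0 lower (0.996%). Nusap1 was thus at the high end in maturing neutrophil-like and HSC/MPP-like cells and at the low end in neutrophil progenitor-like cells.

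In the B cell-like cluster the members summed to 930 CPM in 50 KO cells and 4709 CPM in 67 WT cells, a log2 ratio of -2.34 (-2.52 to -2.17). Of 36 members at a mean of 10 CPM or more, 34 were at least 1.5-fold lower, where 21.8% of all genes were, and 0 were higher (18.1%). Of the 36, 9 had 0 UMIs in KO cells and passed this filter through the WT library alone. The count of lower members is therefore a description only. Top2a had 2 UMIs in KO cells and 116 UMIs in WT cells. The WT sum rested on few cells: 10 cells held 88.6% of it, 7 cells had at least 50 member UMIs, and the highest had 462, while the highest KO cell had 16. The median cell had 5 member UMIs in each library.

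To compare single cells at equal depth, each cell was thinned to 5000 randomly drawn UMIs, which left 4510 KO and 4236 WT cells and left out 199 and 242 shallower ones. The sum over the 48 members was 10 UMIs in the median KO cell and 13 in the median WT cell, with 90th percentiles of 52 and 55 and maxima of 155 and 158. The sums ran out in a long tail in both libraries. A high sum was set at 29 UMIs or more, which at most 25% of all thinned cells reach. It was reached by 22.6% of KO cells (21.4 to 23.9) and 25.8% of WT cells (24.4 to 27.1), a difference of -3.14 percentage points (-4.93 to -1.34). Without thinning, the 25% of cells with most member UMIs per UMI were 23.3% of KO cells and 26.8% of WT cells. Because the cut is on a continuous sum, 2.48% of KO cells and 2.29% of WT cells lay within 1 UMI of it. The share is a range of a sum, not a cell cycle phase.

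**Figure D4:**
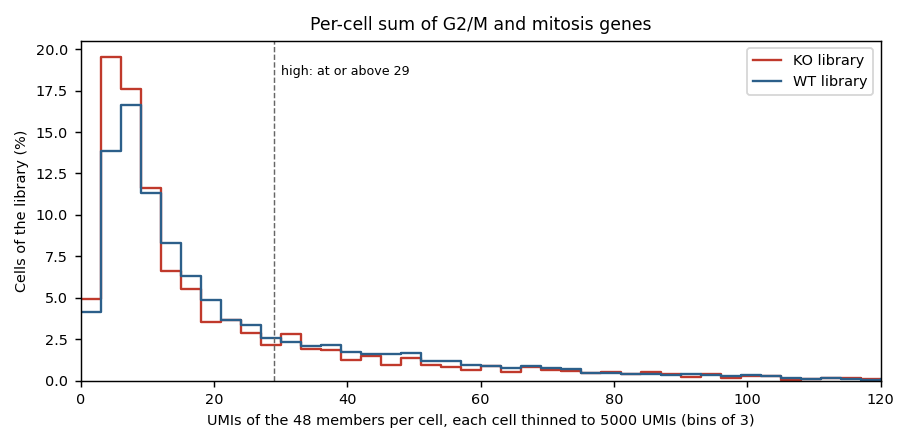
Percent of cells of each library by their sum of member UMIs after thinning to 5000 UMIs, in bins of 3, with the KO library in red and the WT library in blue and the cut for a high sum dashed. The KO library has more cells below 10 UMIs, and both tails run past 100 UMIs, where few cells remain.

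The difference in high-sum cells was smaller when the erythroid-like lineage was left out. In its Car1-led cluster 50.6% of 81 KO cells and 67.4% of 184 WT cells had a high sum, a difference of -16.8 percentage points (-29.2 to -4.02). Without erythroid-like clusters the difference over all cells was -1.38 percentage points, with an interval of -3.17 to 0.40. In the Fn1-led monocyte-like cluster the shares were 43.8% of KO cells and 44.5% of WT cells. In the Tox-led cluster they were 7.47% of KO cells and 10.9% of WT cells. No high-sum cell was seen in the C1qb-led cluster, in 0 of 70 KO cells and 0 of 42 WT cells, which allow shares of up to 4.29% and 7.14%. In the B cell-like cluster 0 of 32 KO cells, which allows up to 9.38%, and 6 of 33 WT cells had a high sum. Top2a was detected in 35.8% of all thinned KO cells and 38.8% of all thinned WT cells, and in 5.71% of KO cells and 4.76% of WT cells of the C1qb-led cluster at the same depth.

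Cells high for the members overlapped in part with cells high for the G1/S list. Both sums were high in 8.43% of KO cells and 10.2% of WT cells, the members alone in 14.2% of KO cells and 15.5% of WT cells, and neither in 62.9% of KO cells and 59.4% of WT cells. Within the high-sum cells, taken here without thinning, the members had 10458 CPM in KO cells and 10245 CPM in WT cells. A common cut on this same sum picked the cells of both libraries, so like summed levels follow from the choice. The counts of members in these and the other cells rest on the same cut and are descriptions. Of 48 members in the high-sum cells, 0 were past 1.5-fold higher (3.53% of all genes) and 0 past 1.5-fold lower (2.36%). In the other cells, 30 members reached 10 CPM, with 0 higher (1.75%) and 0 lower (0.783%). Hjurp had 116 CPM in KO high-sum cells and 91.4 CPM in WT high-sum cells (log2 0.34), and Tubb4b had 523 CPM in KO high-sum cells and 633 CPM in WT high-sum cells (log2 -0.28).

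Each member was then compared between cells high and not high for the sum of the other 47. Of 48 members, 46 were at least 2-fold higher in the high cells in each library, where 3.1% of all genes were in KO cells and 3.76% in WT cells. The median log2 ratio was 2.90 in KO cells and 2.86 in WT cells. Hmmr was most restricted, with 119 CPM in high and 2.87 CPM in other KO cells, while WT levels gave a like log2 ratio (5.38 in KO cells, 5.35 in WT cells). Lbr and Anp32e, a histone chaperone, stayed under 2-fold: Lbr had 182 CPM in high and 102 CPM in other KO cells, and 166 CPM in high and 99.8 CPM in other WT cells. All of these are descriptions, since the members were grouped for rising together in dividing cells.

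The high cells were further split by the G1/S sum, which put the members in a like order in both libraries. Cells high for the members alone were set over cells high for both, leaving out erythroid-like cells: 643 over 386 KO cells and 633 over 356 WT cells. Intervals lay above 0 for 34 members in both libraries, with Ube2c, Cdc20 and Cenpa the highest of them. Ube2c had 361 CPM in members-only and 49.9 CPM in both-high KO cells (log2 2.85), and 378 CPM in members-only and 48.7 CPM in both-high WT cells (log2 2.95). Cdc20 had log2 ratios of 2.50 in KO cells and 2.54 in WT cells, and Cenpa of 2.50 in KO cells and 2.74 in WT cells. Cdk1 lay near equality, at 0.21 in KO cells and 0.14 in WT cells. Intervals lay below 0 in both libraries for 4 members, Top2a, Tmpo, Ndc80 and Aurkb, the kinase of the passenger complex. The share of all genes with such intervals is not given, so the counts of 34 and 4 members are descriptions. Top2a had 615 CPM in members-only and 712 CPM in both-high KO cells (log2 -0.21), and 528 CPM in members-only and 676 CPM in both-high WT cells (log2 -0.36).

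With erythroid-like cells kept in, this order changed for WT more than for KO cells: the Ube2c ratio was 2.43 in KO cells and 1.47 in WT cells, and that of Plk1 was 1.51 in KO cells and 0.49 in WT cells. By the sum of all 48 members, erythroid-like cells were 45 of 431 both-high KO cells and 162 of 518 both-high WT cells. Without them the Plk1 ratio was 1.82 in KO cells and 1.49 in WT cells.

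**Figure D5:**
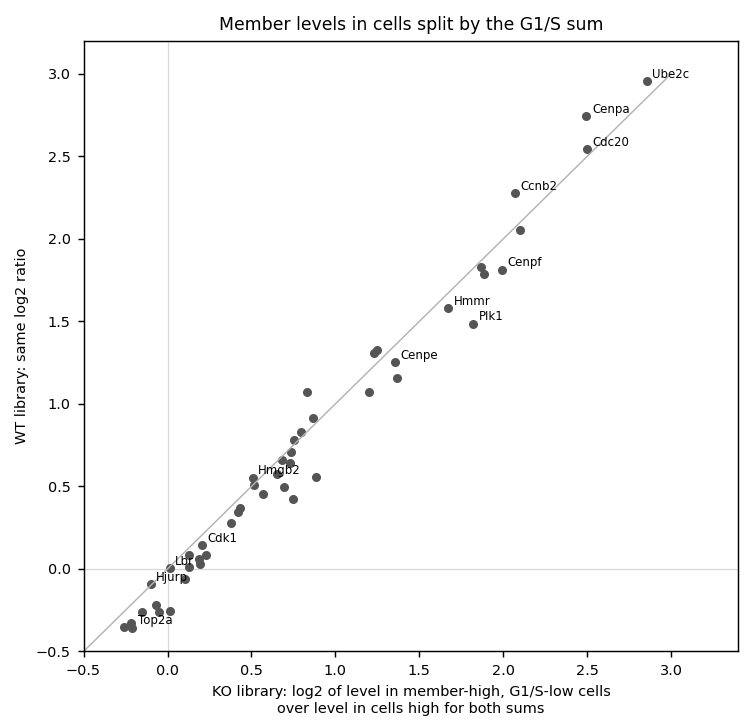
Log2 ratio of each member's level in cells high for the sum of the other members alone over its level in cells high for both that sum and the G1/S sum. The KO library is on the x axis and the WT library on the y axis, without erythroid-like cells, with the line of equality. Points follow the line, from Top2a below 0 to Cenpa, Cdc20 and Ube2c above 2.4 in both libraries.

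Among the 3343 other genes at 50 CPM or more, the 10 most raised in high-sum over other cells were replication-dependent histone genes, haemoglobin genes, Car1 and Prc1, a spindle midzone protein. Hist1h2ab, a core histone gene, had 365 CPM in high-sum and 15.1 CPM in other KO cells (log2 4.60), and its log2 ratio was 4.70 in WT cells. Hist1h3c, Hist1h1b, Hist1h2ap and Hist1h2ae were the other histone genes. Hba-a1, an alpha-globin gene, had 244 CPM in high-sum and 10.0 CPM in other KO cells, and 1078 CPM in high-sum and 15.9 CPM in other WT cells. Hbb-bs and Hba-a2 were the other globin genes. Prc1 had a log2 ratio of 3.58 in KO cells and 3.31 in WT cells. Histone genes overlap in sequence with their paralogs, so their separate values are uncertain.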

How the data were processed

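Libraries of UMI counts, 1 per genotype, per gene and cell barcode were used as the authors deposited them, unnormalised, for barcodes already called as cells. Cell Ranger 6.0.2 made the matrices per the file headers. The submitters' processing notes give version 3.0.1, and GRCm38 as the build. No other column of per-sample values was used. The libraries totalled 120408100 UMIs (KO) and 131667969 UMIs (WT).

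Cells with fewer than 500 genes or over 10% mitochondrial UMIs were left out, then 0.8% of barcodes per 1000 barcodes with the highest Scrublet scores (221 KO and 224 WT cells). Clusters came from 2000 variable genes, 30 principal components, 15 neighbours and Leiden resolution 1. Mitochondrial, ribosomal, haemoglobin and sex-linked genes, the members and the lists (157 genes) were left out of clustering. A further 559 histone or cycle-following genes (correlation over 0.2 with the cycle sums) were left out as well, a choice made after first clusters were seen. A class name needed a median log2 marker fold of at least 1, at least 3 markers in at least 25% of cells and no majority of other markers among the top 10 genes, with Gzma, Ccl5, Klrd1, Cd7 and Skap1 counted as cytotoxic lymphocyte genes, a set added after the clusters were seen. A cluster of low depth with no marker of the class among its top 10 genes was also left unnamed. By this rule the Slc6a4-led cluster, with a median log2 fold of 3.00 for the megakaryocyte markers, has no name. Rebuilt names may differ from the study's.

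Ratios use UMIs summed over cells, with exact conditional binomial intervals, and levels have exact Poisson intervals. Shares have Clopper-Pearson intervals and their differences Newcombe intervals, all at 95%, and a count of 0 cells is given a limit of 3 cells of the total. They cover counting error only. No p-value was computed. The ratio intervals and the thinning were tested on simulated data. For the ratios these were independent Poisson counts per gene without spread between cells, as the intervals themselves assume. That test cannot show how well the intervals cover counts pooled over unlike cells. Scaling alternatives used edgeR and DESeq2 factors only.

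The members, lists and rules were chosen with earlier results of these data known. Values are given for the 4 members at each end of the ratios at 10 CPM or more over all cells, the 2 members of most CPM per role, the 3 at each end at 20 CPM or more in classes of at least 200 cells per library, up to 4 genes per list, and the 10 other genes most raised in high-sum cells at 50 CPM or more. Other named members were chosen after their values were seen. Vector reads were not used. Software was R 4.3.3 with DESeq2 1.42.0 and edgeR 4.0.16, and Python 3.11.15 with igraph 0.11.9, matplotlib 3.10.9, scikit-learn 1.9.0, scanpy 1.11.5, leidenalg 0.10.2, scipy 1.17.1, anndata 0.12.19, pandas 2.3.3 and numpy 2.4.6.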

Additional observations from a re-analysis of the deposited data

Results flagged for a closer look

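The difference between KO and WT cells in the summed level of the 48 members did not have the same sign in all lineages. It was positive in HSC/MPP-like (log2 0.21) and maturing neutrophil-like cells (0.20), and negative in erythroid-like (-0.13), megakaryocyte-like (-0.11), monocyte-like (-0.079) and neutrophil progenitor-like cells (-0.034). With 1 library per genotype the difference between lineages was not tested. The sign in HSC/MPP-like, megakaryocyte-like and neutrophil progenitor-like cells turned in at least 1 other setting.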

How the results depend on the processing

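The counts of 0 members past 1.5-fold in either direction held in all 11 other settings tried. The summed log2 ratio over all cells, -0.13, stayed below 0 in all 9: it was -0.20 with TMM factors, -0.22 with DESeq2 median of ratios, -0.12 as a mean over cells, -0.083 with clusters weighted alike, -0.015 without erythroid-like clusters and -0.038 at the WT mix of clusters. The median over members, -0.11, was -0.041 with clusters weighted alike, -0.028 at the WT mix and 0.0040 without erythroid-like clusters. Settings on the erythroid-like and B cell-like clusters and on the WT mix, and clustering without the members and lists alone, were chosen after seeing the data.

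Without erythroid-like clusters the role group medians turned to 0.019 (kinases and passenger complex), 0.018 (centromere), 0.027 (spindle), 0.0040 (cytokinesis) and 0.053 (chromosome structure). With clusters weighted alike the centromere median was 0.014 and the cytokinesis median 0.0097. At the WT mix the spindle median was 0.0055 and the chromosome structure median 0.031. The difference in high-sum cells was -1.11 percentage points (-2.37 to 0.15) with high set at the top 10% of cells. Between 52% and 75% of clusters had a lower summed level in KO cells over 4 other clusterings, against 68.4% as reported.

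Within classes, the HSC/MPP-like ratio was -0.0098 with cycle genes kept for clustering and -0.18 at resolution 0.5, and the megakaryocyte-like ratio was 0.021 with cycle genes kept. The neutrophil progenitor-like ratio was 0.0056 under the stricter cell filter, 0.035 at resolution 2, 0.033 by marker score and 0.31 with the members and lists alone left out, and no such class formed at resolution 0.5 or with cycle genes kept. In erythroid-like cells the KO over WT scaling factor of TMM was 1.11, which takes the ratio to -0.28. The causes were not tested. No paired analysis was possible because each genotype has 1 library and the labels carry no replicate numbers. Members under 10 CPM and clusters under 50 cells per library are limited by depth.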
